A study of Rattus norvegicus with 15 samples.

Results

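Cardiomyocytes from the hearts of rats given repeated injections of doxorubicin (DOX), meant to bring on heart failure, were compared here with cardiomyocytes of healthy age-matched controls. These 6 samples, 3 from DOX-injected rats and 3 age-matched controls, are part of a series of 15 that also holds cells of hearts 4 weeks after myocardial infarction (MI) by ligation of the left coronary artery, and healthy cells given DOX or saline vehicle for 6 h in culture. Every sample was total RNA of adult Sprague Dawley rat cardiomyocytes that had been plated for 1 h on laminin before the cells that did not attach were discarded. The nCounter assay joins each miRNA to a sequence tag and counts tagged molecules by coloured barcode, 1 lane per sample. Its panel held 420 rat miRNA probes. The labels give no dose, no number of injections and no age, and nothing in them tells whether each sample was a different animal. The p-values therefore cover the spread among these samples alone.

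The miRNAs described are those above the lane background, set at the mean plus 2 SD of the lane's negative-control probes. Of the 420 probes, 106 exceeded it in 1 or more of the 6 lanes, 65 exceeded it in every lane, and 314 in none. In all 3 DOX lanes 68 miRNAs were above background, against 70 in all 3 control lanes. No miRNA was above background in every lane of one group and in no lane of the other. The miRNAs tested were the 109 that exceeded background in 3 or more of all 15 lanes, of which 11 were above it in none of the 6 lanes compared here. A further 8 miRNAs exceeded background in 1 or more of these lanes but in too few lanes to be tested: miR-191, miR-196b and miR-3590-5p in DOX lanes, and miR-325-3p, miR-344a-3p, miR-3578, miR-409-5p and miR-466b in control lanes.

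MicroRNAs are short RNAs that pair through their seed, bases 2 to 8 from the 5′ end, with mRNAs and lower their translation and stability, so that members of a family with the same seed share many targets. Heart muscle is rich in the muscle miRNAs miR-1, miR-133, miR-208 and miR-499 (together called myomiRs), which act in contraction, conduction and growth, and in the miR-29 and miR-30 families, which repress collagen and other matrix mRNAs. The anthracycline DOX, a cancer drug, damages DNA and mitochondria, and injury to the heart limits its use.

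The mature sequences below, from RefSeq on the rat assembly GRCr8, belong to the miRNAs that carry the comparison: the 3 let-7 members called higher, the called miR-133b, and miRNAs of families with members that passed without DOX 1. The seed is in capitals. RefSeq gave a sequence for 90 of the 109 tested miRNAs (82.6%).
let-7e: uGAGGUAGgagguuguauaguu
let-7c: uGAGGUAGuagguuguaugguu
let-7b: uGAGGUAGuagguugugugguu
let-7i: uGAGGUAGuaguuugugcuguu
miR-133b: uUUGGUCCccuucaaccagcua
miR-133a: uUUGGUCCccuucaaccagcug
miR-29a: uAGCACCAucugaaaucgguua
miR-29b: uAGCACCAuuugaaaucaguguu
miR-29c: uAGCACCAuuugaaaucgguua
miR-30a: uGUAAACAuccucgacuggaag
miR-30e: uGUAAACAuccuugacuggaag
miR-30c: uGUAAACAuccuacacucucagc
miR-23a: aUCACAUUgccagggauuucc
miR-27a: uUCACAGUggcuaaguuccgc
miR-125a-5p: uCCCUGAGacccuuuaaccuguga
Counting from 1 at the 5′ end, miR-133b and miR-133a differ by A22G alone, miR-29a and miR-29c by C10U, miR-30a and miR-30e by C13U, and let-7b and let-7c by G17A. Probes for sequences this alike may share signal, so the split of a level between such members is uncertain.

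Lane DOX 1 stood apart from the other DOX lanes and is given apart throughout. The chi-square per degree of freedom between lanes was taken over all miRNA probes with a count in either lane, and it grows with depth. It was 30.9 for DOX 1 with DOX 2 and 17.8 for DOX 1 with DOX 3, but 4.66 for DOX 2 with DOX 3. Between DOX 1 and the control lanes it was 5.98 to 10.7, between DOX 2 or DOX 3 and the controls 13.8 to 30.7, and between control lanes 1.50 to 1.83. Over the 65 miRNAs above background in all 6 lanes, the SD of the log2 difference was 0.81 for DOX 1 with DOX 2 and 0.75 with DOX 3. It was 0.51 to 0.58 for DOX 1 with the control lanes and 0.19 to 0.30 between control lanes. By both measures DOX 1 was nearer to each control lane than to either of the other DOX lanes, and the control lanes were the most alike. Over the same 65 miRNAs, the median ratio of the highest to the lowest lane was 1.67 in the DOX group and 1.19 in the control group.

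On the log2 scale, DOX 1 lay on the same side of the control mean as the mean of DOX 2 and DOX 3 for 43 of the 65 miRNAs. Its difference from the control mean was the smaller in size for 39 of the 65. DOX 2 and DOX 3 were both outside the control range on the same side for 45 of the 65 miRNAs (69.2%), 21 below the controls and 24 above. Of the 21 below, DOX 1 was also below in 12, within the control range in 5 and above it in 4. Of the 24 above, DOX 1 was also above in 18, within the range in 4 and below it in 2. The median size of the difference from control was 0.39 on the log2 scale in DOX 1 and 0.66 for the mean of DOX 2 and DOX 3. DOX 1 exceeded DOX 2 and DOX 3 by more than 2-fold for 13 miRNAs, led by miR-499 (3.50-fold), miR-29b (3.43-fold) and miR-29c (2.85-fold), and fell short of them by more than 2-fold for 2, miR-3583-3p and miR-3594-3p.

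**Figure D1:**
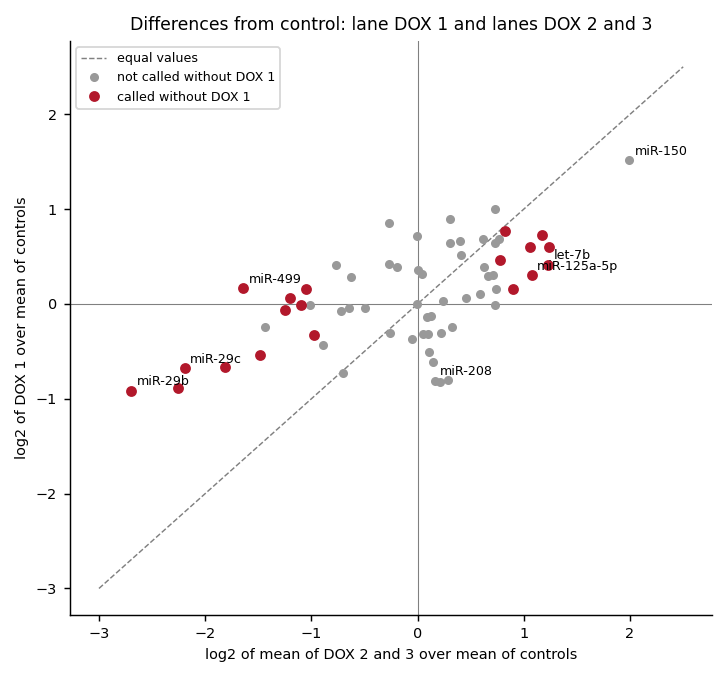
Each point is a miRNA above background in all 6 lanes (n = 65); the x axis is the log2 of the mean of lanes DOX 2 and DOX 3 over the control mean, the y axis the same for lane DOX 1, and red points passed the edgeR test without DOX 1. Most of the red points left of 0 lie above the dashed line of equal values. Most of those right of 0 lie below it. The red points were picked with DOX 1 left out, which favours miRNAs in which DOX 2 and DOX 3 lie far from the controls. Their place against the line therefore shows nothing about DOX 1. Over all 65 miRNAs the DOX 1 difference was the smaller in size for 39. The point of miR-499 lies left of 0 on the x axis and above 0 on the y axis.

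The lanes also differed in depth and in what was counted beside miRNAs. DOX 1, 2 and 3 held 133965, 82751 and 54608 miRNA counts, against 36977, 62663 and 60186 in the control lanes (exact permutation test, two-sided, p = 0.30, where 0.10 is the smallest p that 3 lanes against 3 can give). Per positive-control count, miRNA counts were 7.72, 4.58 and 2.50 in the DOX lanes and 3.68, 3.41 and 3.44 in the controls, so DOX 1 was also the deepest lane by this measure. Negative-control probes averaged 169 ± 62.6 counts per 1000000 miRNA counts in DOX lanes and 208 ± 21.7 in controls (SD, n = 3 each; exact p = 0.40). The 4 housekeeping mRNA probes, by their geometric mean, stood at 7.26 ± 1.81 per 1000 miRNA counts in DOX lanes and 4.38 ± 0.52 in controls, with no overlap (exact p = 0.10). All 6 lanes had the same stage position and file prefix in the file headers. The part of depth and of the housekeeping shift in the results was not tested.

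The labelled cell type was checked against its markers. Of the 7 myomiR probes, 5 were above background in all 6 lanes, 2 (miR-206 and miR-208b) were above it in none, and miR-1 alone took 23.7% to 26.7% of a lane's miRNA counts in DOX lanes and 25.3% to 25.6% in controls. Some markers of other cells were also above background in all 6 lanes. These were 1 of 3 endothelial probes (miR-126), 2 of 2 smooth muscle probes (miR-143 and miR-145) and 2 of 5 leukocyte probes (miR-146a and miR-150). Of 6 fibroblast-associated probes, 3 were above it in all 6 lanes. In none of these lanes was background exceeded by 2 endothelial, 3 leukocyte and 2 fibroblast-associated probes. None of the 2 erythroid probes and none of the 5 probes for brain, liver and islet miRNAs was above background in any lane.

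Levels are given as normalized CPM, that is, counts per 1000000 miRNA counts of the lane after TMM scaling. Across all 109 tested miRNAs, edgeR's quasi-likelihood test called 4 (3.67%), at an adjusted p under 0.05: let-7e, let-7c and let-7b were higher in DOX (3 miRNAs, 2.75%) and miR-133b was lower (1 miRNA, 0.917%). A further 24 had an unadjusted p under 0.05, 28 in all (25.7%). The fitted change was above 0 for 55 of the 109 and below 0 for 54, with a median of 0.00 on the log2 scale, and 37 of the 109 kept their sign under all 6 scalings. Without DOX 1 the same test called 21 (19.3%), 8 higher (7.34%) and 13 lower (11.9%), and all 4 were among them. Leaving out any other lane gave 0 or 1 call. To pass means here to pass this edgeR test: DESeq2 called 21, 15 higher and 6 lower, with all 4 among them, and its further calls included let-7a, let-7d, miR-23a, miR-24, miR-30a, miR-125a-5p, miR-143, miR-150 and miR-199a-3p. The split of calls moved with the scaling, with 25 higher and 1 lower under upper-quartile scaling, 5 higher and 0 lower under positive-control scaling, and 0 higher and 29 lower under housekeeping scaling. The DOX and control lanes were fully separated for 37 of the 109 (33.9%), and in 30 of the 65 miRNAs above background in every lane (46.2%), 18 higher and 12 lower in DOX. With DOX 1 set aside the lanes were separated for 66 of the 109 (60.6%).

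**Figure D2:**
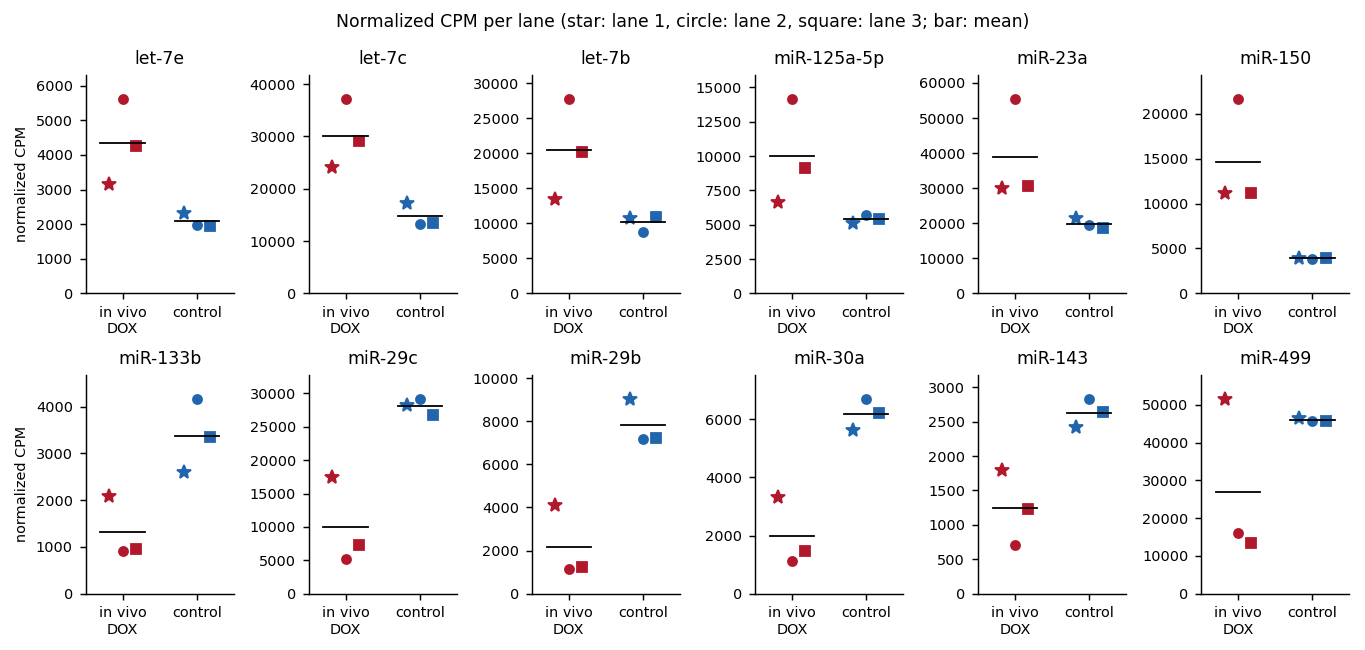
Normalized CPM (y axis, linear from 0) in each in vivo DOX lane (red, left) and each age-matched control lane (blue, right) for 12 miRNAs, with a star for lane 1, a circle for lane 2, a square for lane 3 and a bar at the group mean. In the top row every DOX lane lies above every control lane and DOX 1 is the lowest or close to the lowest DOX lane, while in the bottom row DOX 1 is the highest DOX lane and for miR-499 exceeds the controls.

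The let-7 family, which is abundant in differentiated cells and represses growth-promoting mRNAs, held the 3 calls above control. The level of let-7c was 24173, 37192 and 29077 CPM in DOX 1, 2 and 3, against 17326, 13329 and 13509 CPM in the controls. Every DOX lane exceeded every control lane, with DOX 2 the highest, and let-7c rose 2.05-fold (log2 1.03, SE 0.29, n = 3 per group, edgeR adjusted p = 0.0451). For let-7b the DOX lanes held 13429, 27784 and 20187 CPM, against 10726, 8817 and 10850 CPM in the controls, a 2.02-fold rise (log2 1.01, SE 0.29) in which DOX 1 lay just above the controls. The level of let-7e was 3157, 5623 and 4253 CPM in DOX lanes and 2338, 1970 and 1939 CPM in controls, a rise of 2.09-fold (log2 1.06, SE 0.28). The adjusted p was 0.0451 for each of the 3.

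Of the 8 let-7 members, all above background in all 6 lanes, 3 rose, none fell and 5 did not pass; 7 had a fitted change above 0. The family's median was 0.71 on the log2 scale, against 0.00 over all tested miRNAs, and it was -0.03 when lanes were scaled to the housekeeping mRNAs, a scaling that moved the median of all tested miRNAs to -0.74. The summed level of the family was 133453 to 174029 CPM in DOX lanes and 83502 to 100438 CPM in controls. For let-7a the DOX lanes were close together at 32442, 35395 and 33164 CPM, against 22414, 17571 and 20714 CPM in controls (log2 0.73, SE 0.26, adjusted p = 0.0847). For let-7d the values were 31753, 46449 and 33862 CPM in DOX lanes and 22469, 23989 and 22854 CPM in controls, and it passed without DOX 1 (log2 0.80, adjusted p = 0.0360).

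The exception in the family was let-7i. It held 4214 CPM in DOX 1 but 1879 and 1645 CPM in DOX 2 and DOX 3, against 4565, 3908 and 3712 CPM in the controls. DOX 1 thus lay within the control range and the other DOX lanes well below it (log2 -0.64, SE 0.39, adjusted p = 0.273), and without DOX 1 it passed in the opposite direction to let-7b, let-7c, let-7d and let-7e (log2 -1.20, adjusted p = 0.0360). From let-7a, let-7i differs at 4 bases, U12G, G17A, C18U and U19A, more than let-7c (G19A), let-7e (G9U), let-7f (A12G) or let-7d (A1U and C16U) does.

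Among the myomiRs, miR-133b was the single miRNA called lower. It is read with miR-133a through the same seed, and the family represses growth and smooth muscle genes in cardiomyocytes. Its locus lies at chr9:30594629-30594650 on the plus strand of GRCr8, within the lncRNA gene LOC120094648. The level was 2099, 919 and 964 CPM in DOX 1, 2 and 3 and 2613, 4162 and 3360 CPM in the controls. All DOX lanes were below all controls, DOX 1 the nearest to them, and miR-133b fell 2.52-fold (log2 -1.33, SE 0.31, 95% interval -1.97 to -0.69, adjusted p = 0.0229), or 3.60-fold without DOX 1 (log2 -1.85, adjusted p = 0.000313). The more abundant miR-133a had 34180, 30102 and 20503 CPM in DOX lanes and 45984, 46724 and 45926 CPM in controls, also without overlap, and did not pass (log2 -0.71, SE 0.32, adjusted p = 0.166).

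Of the 5 measured myomiRs 1 fell, none rose, and the median was -0.71 (log2), which was -0.03 when lanes were scaled to the positive controls. Their summed level was 252684 to 352363 CPM in DOX lanes and 352362 to 354779 CPM in controls. The miRNA of the Myh7b gene, miR-499, was split most sharply between DOX lanes. It held 51535 CPM in DOX 1 but 16059 and 13525 CPM in DOX 2 and DOX 3, against 46561, 45770 and 45742 CPM in the controls. DOX 1 was above all controls and the other DOX lanes were far below them, and the change over 3 lanes had a wide error (log2 -0.77, SE 0.59, adjusted p = 0.387); without DOX 1 miR-499 passed (log2 -1.64, SE 0.53, adjusted p = 0.0439).

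The most abundant myomiR, miR-1, had 254879, 303117 and 214751 CPM in DOX lanes and 257586, 254652 and 254926 CPM in controls (log2 0.01, SE 0.23, 95% interval -0.47 to 0.49). The DOX lanes lay on both sides of the controls. The probe for miR-208, which is made from the Myh6 gene, had 1290, 2167 and 2941 CPM in DOX lanes and 2035, 2351 and 2407 CPM in controls (log2 -0.10, SE 0.29). This probe is among the 3 from which the authors' own correction subtracted background in all 15 lanes, so its level is uncertain.

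The miR-29 family, whose members repress mRNAs of collagens, had the lowest median of the lists with at least 3 tested members, -1.49 on the log2 scale and below 0 under each of the 6 scalings tried, but none of its 3 members passed the edgeR test with all 3 DOX lanes. With those lanes DESeq2 called miR-29c (adjusted p = 0.00665) and miR-29b (adjusted p = 0.0495) but not miR-29a (adjusted p = 0.258). An edgeR fit of the 6 lanes with the replicate number as a block called miR-29c (adjusted p = 4.29e-06) and miR-29b (adjusted p = 4.03e-07). Same-numbered lanes did not deviate together and are not taken as pairs, so the p-values of the block fit are not relied on. The level of miR-29c was 17507, 5156 and 7327 CPM in DOX 1, 2 and 3 and 28300, 29137 and 26800 CPM in the controls. The groups did not overlap (log2 -1.49, SE 0.49, adjusted p = 0.0847), and without DOX 1 miR-29c was 4.50-fold lower (log2 -2.17, adjusted p = 0.00529). For miR-29b the DOX lanes held 4110, 1152 and 1246 CPM, against 9021, 7181 and 7206 CPM in the controls (log2 -1.83, SE 0.74, adjusted p = 0.150; 6.50-fold lower without DOX 1, log2 -2.70, adjusted p = 0.0360). The level of miR-29a was 79891, 34024 and 35274 CPM in DOX lanes and 73789, 68219 and 73111 CPM in controls, so that DOX 1 was above every control (log2 -0.53, SE 0.32; without DOX 1 log2 -1.05, adjusted p = 0.0184).

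All 3 members thus passed without DOX 1, while with all lanes miR-29a was above 0 (log2 0.11) under positive-control scaling. The family's summed level was 101508 CPM in DOX 1, 40332 CPM in DOX 2 and 43847 CPM in DOX 3, against 104536 to 111109 CPM in the controls. Copies of these miRNAs lie in pairs: miR-29b and miR-29c are 552 bases from end to end on chromosome 13, and miR-29a and the other copy of miR-29b 397 bases on chromosome 4.

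The miR-30 family, abundant in heart muscle, split in its direction. The level of miR-30a was 3333, 1125 and 1479 CPM in DOX lanes and 5638, 6688 and 6203 CPM in controls, with no overlap (log2 -1.63, SE 0.52, adjusted p = 0.0847), and it was 4.75-fold lower without DOX 1 (log2 -2.25, adjusted p = 0.0120). For miR-30d the DOX lanes held 7884, 4951 and 5101 CPM, against 10093, 9485 and 10065 CPM in the controls (log2 -0.72, SE 0.30; without DOX 1 log2 -0.97, adjusted p = 0.0360). The low miR-30e had 881, 192 and 399 CPM in DOX lanes, where 1 of 3 was above background, and 1293, 1414 and 1739 CPM in controls, where all were (log2 -1.54, SE 0.70, adjusted p = 0.194).

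The other members did not share this. The level of miR-30c was 9599, 10477 and 7610 CPM in DOX lanes and 6876, 6355 and 6972 CPM in controls, higher in every DOX lane (log2 0.46, SE 0.26, adjusted p = 0.254). For miR-30b-5p the groups overlapped (log2 0.01, SE 0.29). Of the 5 members none passed with all lanes, 2 were lower without DOX 1, and the median was -0.72. In the genome, a copy of miR-30c lies with miR-30e in a stretch of 3021 bases inside the Nfyc gene. These neighbours had fitted changes of opposite sign, except under housekeeping scaling (log2 -0.26 and -2.10).

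Opposite signs also stood beside each other in the miR-23/24/27 clusters, whose members act in vessels and muscle. The 3 miRNAs of the chromosome 19 cluster span 318 bases. Of these, miR-23a had 30190, 55472 and 30705 CPM in DOX lanes and 21452, 19573 and 18658 CPM in controls (log2 0.96, SE 0.30, adjusted p = 0.0603). Its neighbour miR-27a had 5657, 2784 and 2858 CPM in DOX lanes and 5803, 5402 and 5918 CPM in controls (log2 -0.59, SE 0.37, adjusted p = 0.273). The third, miR-24, which has another copy on chromosome 17, had 3622, 3511 and 3905 CPM in DOX lanes and 6106, 5989 and 5952 CPM in controls.

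For miR-24 all 3 DOX lanes, DOX 1 included, were close together and below every control, yet it did not pass (log2 -0.71, SE 0.26, adjusted p = 0.0847). Without DOX 1, miR-23a passed as higher (log2 1.12, adjusted p = 0.0120) and miR-27b, of the chromosome 17 cluster, as lower (log2 -1.09, adjusted p = 0.0456); miR-27b had 24149, 12452 and 10484 CPM in DOX lanes and 24367, 24657 and 24175 CPM in controls. Of the 5 members none passed with all lanes, and the median was -0.59, which was 0.00 under positive-control scaling.

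A second cluster, in the Spaca6 gene on chromosome 1, held 3 miRNAs with fitted changes of the same sign. These, let-7e, miR-99b and miR-125a-5p, lie within 643 bases. Under housekeeping scaling let-7e (log2 0.27) and miR-125a-5p (log2 0.08) stayed above 0, and miR-99b (log2 -0.20) did not. The level of miR-125a-5p, which represses regulators of cell survival, was 6658, 14166 and 9122 CPM in DOX lanes and 5143, 5688 and 5400 CPM in controls, without overlap (log2 0.88, SE 0.27, adjusted p = 0.0603; log2 1.11 and adjusted p = 0.00827 without DOX 1). For miR-99b the DOX lanes held 1795, 2907 and 1828 CPM, against 1623, 1366 and 1404 CPM in the controls (log2 0.57, SE 0.30). Its relative miR-125b-5p had 45518, 85629 and 66760 CPM in DOX lanes and 35093, 43832 and 43769 CPM in controls (log2 0.69, SE 0.28, adjusted p = 0.136; log2 0.90 and adjusted p = 0.0337 without DOX 1). Of the 5 tested members of the miR-99/100 and miR-125 families all had a fitted change above 0 and none passed with all lanes, with a median of 0.57 that was -0.20 under housekeeping scaling.

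In all, 19 stretches of the genome held at least 2 tested miRNAs within 10 kb of the next on the same strand, and 10 of them held fitted changes of both signs. Copies that lie elsewhere count in each stretch, and most members did not pass the test. The signs are those under TMM scaling, and some of them moved with the scaling. Under housekeeping scaling miR-23b (log2 -0.33) took the sign of its neighbours miR-24 and miR-27b, and miR-1 (log2 -0.72) that of miR-133a. The value of miR-1, 0.01 under TMM, was also negative without TMM (log2 -0.04).

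**Figure D3:**
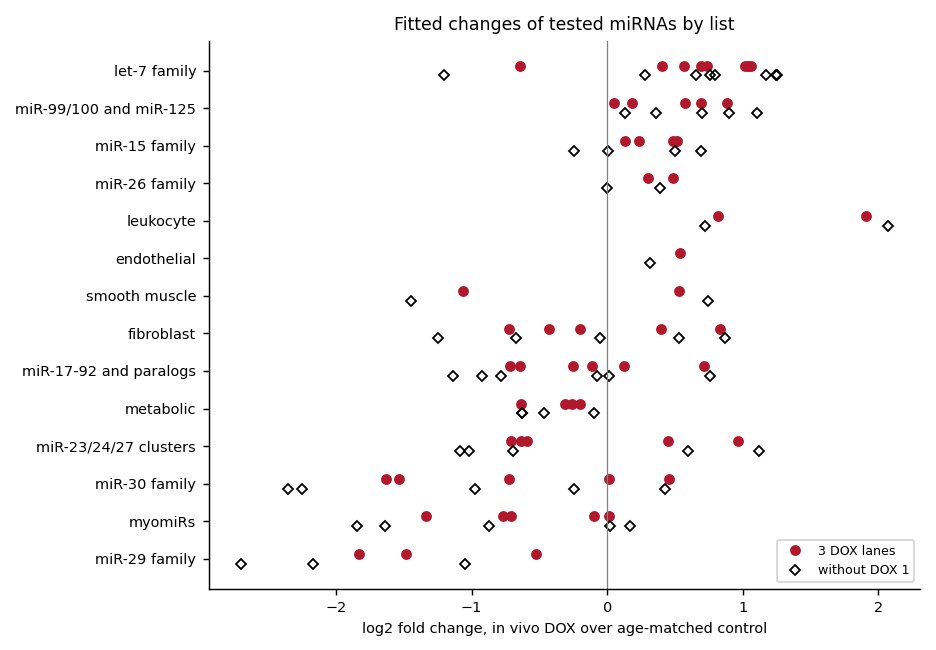
The x axis is the fitted log2 fold change of in vivo DOX over age-matched control for each tested member of 14 lists (rows), with filled red circles for all 3 DOX lanes and open diamonds without lane DOX 1. The let-7 circles lie above 0 for 7 of 8 members and the miR-29 circles below 0 for 3 of 3, and the diamonds of both lists lie mostly further from 0.

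Smaller or more mixed groups included the miR-15 family, regulators of the cell cycle. In it 4 of 4 members had a fitted change above 0 (median 0.36, or -0.31 under housekeeping scaling) and none passed. Without DOX 1 the median of the miR-15 family was 0.25, and miR-322 lay below 0 (log2 -0.24). In the miR-17-92 clusters and their paralogs, which promote growth, 2 of 6 lay above 0 and 4 below, with a median of -0.18 that was 0.32 under positive-control and 0.16 under upper-quartile scaling, and none passed. Their member miR-25 had 2460, 3168 and 2160 CPM in DOX lanes and 1678, 1430 and 1638 CPM in controls (log2 0.72, SE 0.27, adjusted p = 0.0962). The metabolic miRNAs miR-22, miR-103, miR-107 and miR-378 were all below 0 with a median of -0.28, which was 0.17 under positive-control and 0.06 under upper-quartile scaling, and none passed.

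In miR-22, the most abundant of these, DOX 1 again parted from the rest. It held 88808 CPM in DOX 1 and 44885 and 49895 CPM in DOX 2 and DOX 3, against 73404, 67805 and 78695 CPM in the controls (log2 -0.26, SE 0.29). The hypoxia-induced miR-210 behaved otherwise, with 449, 370 and 548 CPM in DOX lanes and 908, 842 and 869 CPM in controls, DOX 1 being no exception (log2 -0.94, SE 0.34, adjusted p = 0.0858). It was above background in 1 of 3 DOX lanes and all 3 control lanes. The p53-responsive miR-34a, a mediator of DNA-damage responses, had 593, 302 and 216 CPM in DOX lanes and 578, 572 and 468 CPM in controls, above background in 1 lane of each group (log2 -0.47, SE 0.34; log2 -1.03 and adjusted p = 0.0360 without DOX 1).

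Of miRNAs known from other cell types, miR-150 of leukocytes had the highest fitted log2 value of the 109 tested miRNAs but did not pass. It held 11177, 21668 and 11132 CPM in DOX lanes and 3905, 3829 and 3979 CPM in controls, a complete separation in which DOX 1 and DOX 3 were alike (log2 1.91, SE 0.62, 95% interval 0.55 to 3.26, adjusted p = 0.0847). The inflammation-related miR-146a had 2332, 2085 and 1778 CPM in DOX lanes and 1293, 937 and 1304 CPM in controls, again without overlap (log2 0.82, SE 0.35, adjusted p = 0.150). The summed level of these 2 was 12910 to 23752 CPM in DOX lanes and 4766 to 5283 CPM in controls, while the other 3 leukocyte probes on the panel were above background in none of the 6 lanes. In RNA from many cells, more cells of a type and more RNA per cell cannot be told apart.

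Endothelial miR-126 had 39485, 30541 and 22364 CPM in DOX lanes, the highest in DOX 1, and 20104, 21447 and 22102 CPM in controls (log2 0.54, SE 0.30, adjusted p = 0.251), while the other 2 endothelial probes were above background in no lane. Of the smooth muscle pair, made from the Carmn transcript, miR-143 had 1803, 713 and 1230 CPM in DOX lanes and 2420, 2828 and 2642 CPM in controls (log2 -1.06, SE 0.35, adjusted p = 0.0747; log2 -1.44 and adjusted p = 0.0103 without DOX 1). Its partner miR-145 had 53097, 104033 and 75616 CPM in DOX lanes and 57865, 49758 and 53316 CPM in controls (log2 0.53, SE 0.28, adjusted p = 0.225). They lie within 1362 bases, and the pair had opposite signs except under housekeeping scaling, where miR-145 was at -0.27; miR-126 was at -0.13 there.

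Of 5 tested fibroblast-associated miRNAs none passed with all lanes, and without DOX 1 there was 1 in each direction. The level of miR-21, raised in many injured tissues, was 3445 CPM in DOX 1 and 1454 and 1578 CPM in DOX 2 and DOX 3, against 3465, 3622 and 3695 CPM in the controls. DOX 1 was almost at the control level and the others far below it (log2 -0.73, SE 0.32, adjusted p = 0.150; log2 -1.25 and adjusted p = 0.00827 without DOX 1). For miR-199a-3p the DOX lanes held 961, 1289 and 781 CPM, against 550, 635 and 518 CPM in the controls (log2 0.83, SE 0.29, adjusted p = 0.0847; log2 0.87 and adjusted p = 0.0486 without DOX 1). The last of the 21 calls without DOX 1 was miR-190, at 272, 96 and 199 CPM in DOX lanes and 275, 350 and 451 CPM in controls, above background in none of these lanes.

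Base composition was set beside the changes. Across 55 of the 65 miRNAs that have a RefSeq sequence (84.6%), the correlation of GC content with the fitted change was -0.03 (Pearson) and -0.07 (Spearman), and with the difference of DOX 1 alone from the control mean it was -0.26 and -0.29. These points share lanes and scaling, and the values are a description across miRNAs.

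The authors' deposited table for this comparison lists group means, quantile-normalized by its name, and an unadjusted p for 420 probes, of which 41 had a p under 0.05, 23 lower and 18 higher in DOX. In the authors' deposited table miR-29c had the smallest p among tested miRNAs (0.00110), with means of 867 in DOX and 2893 in controls. The smallest p after Benjamini-Hochberg adjustment of the p-values in the authors' deposited table was 0.196. Of the 105 tested miRNAs with a matching name in the authors' deposited table, 94 had the same direction as the edgeR fit. Only 22 of the 41 probes with a p under 0.05 in the authors' deposited table were among the tested miRNAs. They included miR-133b and let-7c but not let-7b or let-7e.

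To ask where the DOX hearts differed from hearts failing after MI, the DOX lanes were set directly against the 3 MI lanes, and 35 of 109 miRNAs passed (32.1%), 20 higher (18.3%) and 15 lower (13.8%) in DOX. Under positive-control scaling the split was 0 higher and 22 lower, and under housekeeping scaling 8 higher and 11 lower. Positive-control counts summed to 17357, 18059 and 21869 in the DOX lanes and to 4229, 9661 and 6389 in the MI lanes. The part of this difference in the calls was not tested. Of the tested markers of other cell types, 3 of 5 fibroblast, 1 of 1 endothelial, 1 of 2 smooth muscle and 0 of 2 leukocyte miRNAs were lower, and none was higher. Those that did not pass included miR-145 (log2 0.61, adjusted p = 0.0938), miR-150 (log2 0.87, adjusted p = 0.289) and miR-146a (log2 -0.85, adjusted p = 0.0552). The level of miR-199a-3p was 1010 ± 258 CPM in DOX and 3442 ± 711 CPM in MI (SD, n = 3 each), 3.40-fold lower (log2 -1.77, SE 0.27, edgeR adjusted p = 3.11e-05). That of miR-21 was 2159 ± 1116 CPM in DOX and 6307 ± 755 CPM in MI (log2 -1.54, SE 0.32), and that of miR-126 was 30796 ± 8563 CPM in DOX and 98515 ± 45420 CPM in MI (log2 -1.68, SE 0.31).

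The lane values show how far the groups lay apart. In the MI lanes miR-126 held 131043, 117880 and 46623 CPM, the last of them nearest to the DOX lanes. The arm miR-199a-5p was above background in no DOX lane and in all 3 MI lanes (283 ± 44.6 CPM in DOX, 1657 ± 588 CPM in MI; log2 -2.58, SE 0.32), and miR-322 had a log2 value of -1.79 (SE 0.38). Of the 15 lower miRNAs, 7 were above background in all 3 lanes of both groups.

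Of the 20 higher than in MI, 7 were above background in all 3 lanes of both groups, among them let-7d (log2 0.77, SE 0.26), let-7a (log2 0.71, SE 0.26) and miR-30c (log2 0.80, SE 0.27), and 5 were above it in no MI lane. Among those 5 were miR-466d, miR-501, miR-3589 and miR-3571, which were also above background in only 1 or 2 DOX lanes, so no size is given for them. The last of the 5, miR-32, was above background in all 3 DOX lanes. Its size is not given either, because no MI lane exceeded background. The level of miR-544 was above background in 3 DOX lanes and 2 MI lanes (log2 1.49). Negative-control probes stood at 169 ± 62.6 counts per 1000000 miRNA counts in DOX lanes and 105 ± 8.59 in MI lanes, and their part in these higher calls was not tested. For miR-133b the DOX and MI levels were 1327 ± 669 CPM and 1356 ± 84.3 CPM, and for let-7c 30147 ± 6575 CPM and 26831 ± 2660 CPM, differences that did not pass (adjusted p = 0.992 and 0.721).

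**Figure D4:**
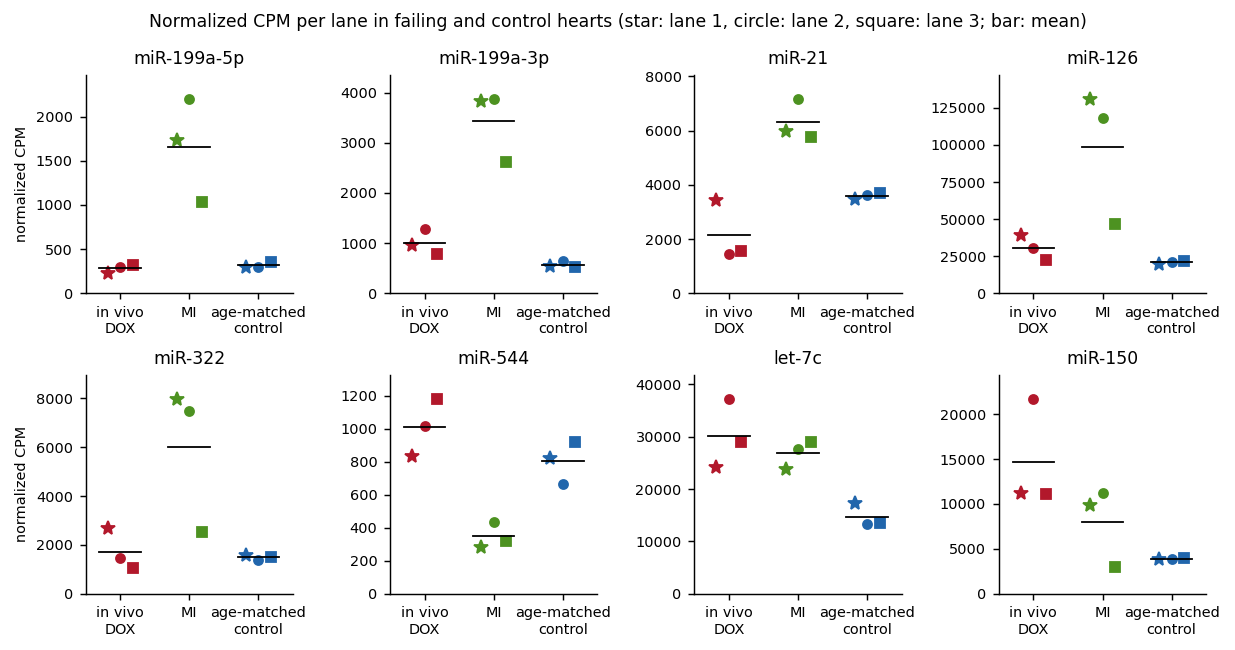
Normalized CPM (y axis, linear from 0) per lane for 8 miRNAs in in vivo DOX (red), MI (green) and age-matched control (blue), with a star for lane 1, a circle for lane 2, a square for lane 3 and a bar at the group mean. The levels of miR-199a-5p, miR-199a-3p and miR-21 are higher in every MI lane than in every DOX lane, while for let-7c the DOX and MI lanes overlap and both lie above the controls.

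The difference between DOX and control in animals was also set against that between DOX and vehicle after 6 h in culture, which shares no lane with it. Over the 65 miRNAs the 2 log2 differences correlated at r = 0.88 (Pearson; Spearman 0.83), at 0.93 when DOX 1 was left out, and at 0.50 for DOX 1 alone. The culture DOX lanes were not uniform either. In culture DOX 1, 2 and 3, miR-29b held 640, 675 and 4682 CPM and miR-499 held 10048, 8751 and 43965 CPM. Not every miRNA parted so, and let-7d held 35027, 30024 and 33576 CPM. The culture difference is the mean over all of these lanes. The points share the panel, the probes and the scaling, so the correlation is a description. In the file headers all culture DOX lanes had stage position 3 and file prefix 1, and all vehicle lanes stage position 4 and file prefix 2. In culture, DOX therefore cannot be told apart from these header differences. The test of the difference between the 2 effects called 1 of 109 miRNAs (0.917%), miR-1949, with 10 at an unadjusted p under 0.05 (9.17%). For miR-1949 the level was 689, 521 and 615 CPM in DOX animals and 550, 397 and 301 CPM in controls, but 292, 217 and 372 CPM with DOX in culture and 1829, 1744 and 1619 CPM with vehicle. It was above background in 2 DOX and 1 control lane in animals, and in 0 DOX and 3 vehicle lanes in culture, so the size of the difference is uncertain.

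**Figure D5:**
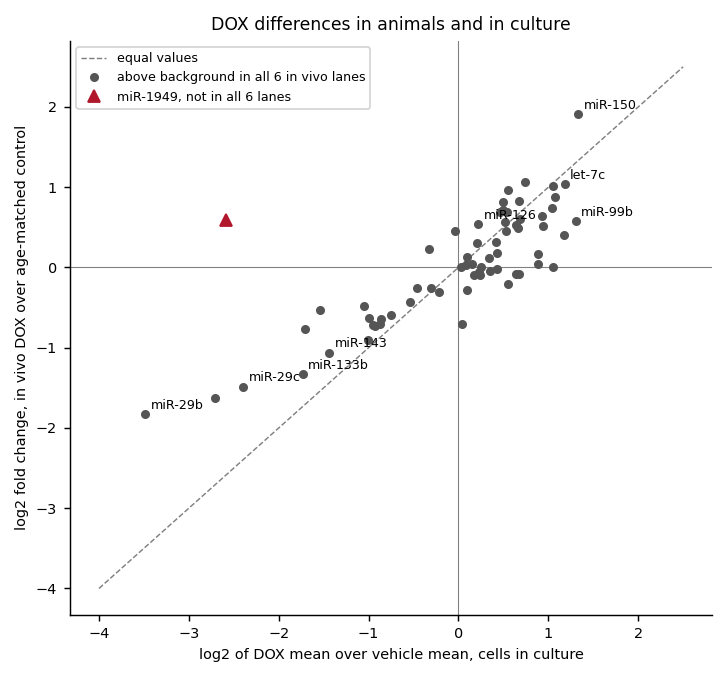
The y axis is the fitted log2 fold change of in vivo DOX over age-matched control and the x axis the log2 of the DOX mean over the vehicle mean in culture, for the 65 miRNAs above background in all 6 in vivo lanes (grey) and for miR-1949 (red triangle). The grey points run from miR-29b at the lower left to miR-150 at the upper right (Pearson r = 0.88), and miR-1949 lies far from them.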

How the data were processed

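Total RNA of 15 cardiomyocyte samples was counted on a NanoString nCounter rat miRNA panel, 1 lane per sample. Each deposited expected count (estimated count) is the number of barcodes per probe and lane, exported by the authors without scaling, per the file headers. In a second deposited sheet the authors lowered 3 probes by a fraction of the lane's brightest positive control and set results under 1 to 1. A further deposited signal sheet was scaled by the authors to positive controls and then to the miRNA sum, per the file headers. The authors' deposited comparison table gives group mean signals, an unadjusted p-value and a t score per probe; the test and the software behind them are not given in the sources used here. No column of another sample was present (0 columns left unused).

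The uncorrected counts, which were whole numbers, were tested with edgeR 4.0.16 in R 4.3.3 (TMM scaling, robust quasi-likelihood F test, all 15 lanes in 1 fit, Benjamini-Hochberg adjustment over 109 miRNAs, adjusted p under 0.05 called). DOX was compared with age-matched control and with MI, and the DOX effect in animals with that in culture. Single lane values were compared by two-sided exact permutation tests. Alternatives used other scalings, filters and backgrounds, DESeq2 1.42.0, limma 3.58.1 on log2(signal + 1) of the authors' signal, a replicate block and lanes left out. The code was tested on simulated data. Tables were handled in Python 3.11.15 with pandas 2.3.3.

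Lane totals of 36977 to 133965 miRNA counts set the precision, and tests cover the spread between lanes only. Named miRNAs were those called with or without DOX 1, the 12 of smallest p in each direction and all tested list members. Also named were the 10 most abundant in DOX lanes and the 5 most changed calls in each direction of the other comparisons. The 8 untested miRNAs, miR-32, miR-3583-3p and miR-3594-3p were named after their values were seen. The members and lists were chosen with earlier results of these data known. Whether a probe for an unmarked name reads the major arm was assigned by hand before matching to RefSeq.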

Additional observations from a re-analysis of the deposited data

Results flagged for a closer look

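The effect of DOX on miR-1949 differed between animals and culture. The fitted effect was higher by 3.13 on the log2 scale in animals, as DOX over age-matched control, than in culture, as DOX over vehicle (SE 0.44, edgeR adjusted p = 1.37e-05, 3 lanes per group). The probe was above background in no DOX lane in culture and in 2 of 3 DOX and 1 of 3 control lanes in animals, so this size is uncertain. The culture DOX and vehicle lanes also differed in stage position and file prefix, which cannot be told apart from DOX there. Every DOX lane in culture lay below every vehicle lane, while in animals 2 of the 3 DOX lanes lay above all control lanes and the third lay within their range.

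Probes for mRNAs, which are outside the miRNA measurement, were higher in DOX lanes than in control lanes. Actb stood at 1.94 ± 0.614 counts per 1000 miRNA counts in DOX lanes and 0.925 ± 0.00549 in controls (SD, n = 3 each). B2m stood at 8.17 ± 1.79 in DOX lanes and 4.70 ± 0.743 in controls, and Rpl19 at 5.66 ± 0.777 in DOX lanes and 3.08 ± 0.574 in controls, on the same scale. No DOX lane overlapped a control lane for any of these 3, and the exact two-sided permutation p was 0.10 for each, the smallest that 3 lanes against 3 can give. Gapdh stood at 19.0, 33.1 and 43.0 in DOX lanes and 24.6, 26.7 and 31.4 in controls, where the groups overlapped (exact two-sided permutation p = 0.60). Groups of 3 lanes are too small for a test of single outlying lanes.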

How the results depend on the processing

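For DOX against age-matched control, the 4 calls became 0 to 21 when 1 lane was left out: 21 without DOX 1, 1 without control 1, and 0 without DOX 2, DOX 3, control 2 or control 3, where edgeR still gave 16, 26, 19 and 21 at an unadjusted p under 0.05. The count was 53 without DOX 1, MI 3 and culture DOX 3 together, 13 with only the 6 lanes in the fit, 21 with DESeq2, 26 with upper-quartile scaling, 29 with housekeeping scaling, 17 of 58 miRNAs above background in all 15 lanes, 9 of 73 above it in all lanes of either group, 1 with background subtracted and 8 without robust shrinkage. Over 22 alternatives let-7b, let-7c and let-7e were each called in 14 and miR-133b in 16, with adjusted p up to 0.691, 0.629, 0.624 and 0.550. With the replicate number as a block in the 6-lane fit 14 were called, 3 of the 4 among them. Same-numbered lanes did not deviate together (r = -0.03, -0.09 and 0.08), so the numbers are not taken to pair the lanes. For DOX against MI, the 35 calls became 21 to 53 when 1 DOX lane was left out (53 without DOX 1, 21 without DOX 2 and 21 without DOX 3), 19 with housekeeping scaling and 22 with positive-control scaling. For the difference between animals and culture, the 1 call became 1 to 2 when 1 DOX lane was left out (2 without DOX 3) and 2 with no filter on low counts. For DOX against age-matched control, no named miRNA called in the main fit or in the alternative changed sign. Named miRNAs called in neither did change sign, 27 of them under housekeeping, 14 under positive-control and 11 under upper-quartile scaling. Signs were not compared in this way for the other comparisons. The causes were not tested. Near background, such as for miR-190 and miR-199a-5p, counts limit what can be seen.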
